A study of Homo sapiens with 9 samples.

Results

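The FERM-domain protein tyrosine phosphatases PTPN3, PTPN4, PTPN13, PTPN14 and PTPN21 were followed in RNA-seq of SKNO-1 cells, 5 genes of 25680 gene symbols in the count files. The family was chosen by the values of PTPN14, whose p value for shASXL2-2 against shControl was among the smallest in earlier results of these data. The other 4 genes came in by protein family. The values of PTPN14 in that contrast, and in any contrast that uses the same samples, are therefore given as a description. SKNO-1 is a human acute myeloid leukaemia line that carries the AML1-ETO fusion protein (AML-ETO in the labels), the product of a translocation that joins RUNX1 to RUNX1T1. The 9 samples comprised 3 shControl samples (labelled EV) and 3 samples each with the shRNAs shASXL2-2 and shASXL2-3 (labelled SH2 and SH3) against ASXL2, a Polycomb-associated chromatin regulator. All 9 samples are of this 1 line and carry the fusion. Each group held samples numbered 1, 13 and 25; what these numbers stand for is not said in the labels. The study's methods describe the samples of a group as biological replicates.

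FERM-domain phosphatases couple a catalytic phosphatase domain to a band 4.1 module that attaches the protein to the membrane and cortical cytoskeleton. PTPN14 and PTPN21 form a pair with a long linker, and PTPN14 binds YAP and the scaffold KIBRA (encoded by WWC1), by which it restrains the transcription coactivator YAP in the Hippo pathway. PTPN3 and PTPN4 form a second pair with a PDZ domain, and PTPN13 carries several PDZ domains and binds the death receptor FAS. The phosphatases best known in blood cells, such as PTPN6, PTPN11 and the receptor-type PTPRC (CD45), have no FERM domain.

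The 3 expressed members differed in the sequence just upstream of their start. The 250 bases before the RefSeq start (build GRCh38.p14) are shown for them, 5′ to 3′ on the strand of the gene, because these are the 3 genes whose levels could be compared. PTPN14 lies at chr1:214551603-214551852 on the minus strand, PTPN4 at chr2:119759672-119759921 on the plus strand and PTPN13 at chr4:86594065-86594314 on the plus strand. Capitals mark matches on either strand to the RUNX motif (TGTGGT or TGCGGT), the ETS motif (CCGGAA) and the TEAD motif (CATTCC), and no matches shared bases.
PTPN14: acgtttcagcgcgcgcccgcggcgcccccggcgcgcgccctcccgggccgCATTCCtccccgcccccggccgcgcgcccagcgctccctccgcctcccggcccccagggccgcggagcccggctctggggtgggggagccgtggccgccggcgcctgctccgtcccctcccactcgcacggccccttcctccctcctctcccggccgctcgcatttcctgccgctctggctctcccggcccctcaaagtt
PTPN4: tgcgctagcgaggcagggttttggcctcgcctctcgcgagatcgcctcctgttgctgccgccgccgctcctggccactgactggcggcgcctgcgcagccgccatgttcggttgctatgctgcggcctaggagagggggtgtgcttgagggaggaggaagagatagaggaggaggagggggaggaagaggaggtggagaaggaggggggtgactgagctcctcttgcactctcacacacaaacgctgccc
PTPN13: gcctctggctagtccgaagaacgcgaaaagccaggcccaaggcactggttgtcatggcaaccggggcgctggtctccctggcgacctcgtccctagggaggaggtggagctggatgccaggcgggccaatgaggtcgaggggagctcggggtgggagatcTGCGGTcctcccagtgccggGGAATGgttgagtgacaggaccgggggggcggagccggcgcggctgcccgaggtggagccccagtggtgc

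The PTPN14 window was the richest in G and C of the 3, with 80.0% GC and 36 CpG dinucleotides, against 65.2% and 16 for PTPN4 and 69.2% and 18 for PTPN13. The median over 35116 RefSeq promoters of this length was 58.0% GC and 11 CpG. PTPN14 held 1 TEAD match and no RUNX or ETS match, PTPN13 held 1 RUNX and 1 TEAD match, and PTPN4 held none of the 3 motifs. Of all promoters, 16.3% held a RUNX match, 14.5% an ETS match and 11.9% a TEAD match, so these are common letters. Whether any of the matches is a bound site was not tested.

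Depth allowed low levels to be seen. With 1 RefSeq row kept per symbol, the samples held 27714431 to 35406063 counts, and 3 counts in a sample corresponded to 0.0847 to 0.108 CPM. CPM here are counts scaled to the TMM-adjusted library size. Of the 6 genes listed as markers of myeloid blasts, MPO, KIT, CD33, ANPEP and RUNX1T1 were expressed, and the 6 summed to 7059 to 11068 CPM in a sample. RUNX1T1 is a gene of the fusion, so its level does not by itself mark the lineage. CD34, a progenitor marker on that list, was low, at 0.128 ± 0.0916 CPM (SD, n = 3) in shControl. The 7 epithelial and stromal markers summed to at most 0.238 CPM, with KRT19 and COL1A2 at 0 in every sample, and the 4 lymphoid markers to at most 0.139 CPM, with CD3E and MS4A1 at 0.

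ASXL2, the targeted gene, was lower in every knockdown sample. It measured 67.9, 67.9 and 74.7 CPM in shControl numbers 1, 13 and 25. The shASXL2-2 samples had 30.4, 36.2 and 36.2, and the shASXL2-3 samples 26.9, 29.1 and 41.1. All 6 knockdown samples lay below the 3 controls, at 48.8% ± 4.26 (SD, n = 3) of the control of the same number with shASXL2-2 and 45.8% ± 8.13 (SD, n = 3) with shASXL2-3. For both shRNAs averaged the log2 fold change was −1.08 (SE 0.13), with an adjusted p of 0.177 by the edgeR quasi-likelihood test fitted on groups alone. With the number as a block (the paired fit) it was −1.09, with an adjusted p of 0.00098.

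Of the 5 phosphatases 3 could be compared, since PTPN4, PTPN13 and PTPN14 passed the filter on low counts. PTPN3, a phosphatase of the PDZ-bearing pair, had 0 counts in all 7 of its RefSeq rows in all 9 samples. PTPN21, the closest relative of PTPN14, had 2, 0 and 1 counts in shControl numbers 1, 13 and 25, 0, 3 and 2 with shASXL2-2 and 4, 1 and 0 with shASXL2-3. These counts were at or near the floor of 3, so no difference in PTPN3 or PTPN21 was detectable at this depth.

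Per kilobase of transcript, the scale on which genes can be set against each other, PTPN13 was the highest of the family in shControl, at 8.04 ± 0.509 CPM per kb (SD, n = 3). PTPN14 and PTPN4 were at 3.94 ± 0.253 and 3.89 ± 0.514 CPM per kb (SD, n = 3), a difference within their spread. Among 35 tyrosine phosphatase genes with a length, PTPN13 ranked 11th, PTPN14 15th and PTPN4 16th. The non-receptor phosphatases PTPN7, PTPN6 and PTPN11 led with 158 ± 16.6, 104 ± 20.2 and 48.5 ± 5.70 CPM per kb, followed by the receptor types PTPRA and PTPRC with 34.2 ± 1.20 and 28.4 ± 6.50 CPM per kb (SD, n = 3 each), while PTPRE had 14.9 ± 2.81. PTPN21 ranked 27th, and PTPN3, with no counts, shared the last place with the other genes at 0 in shControl. The 3 expressed FERM-domain phosphatases were thus in the middle of the family's range and the other two near its bottom.

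**Figure D1:**
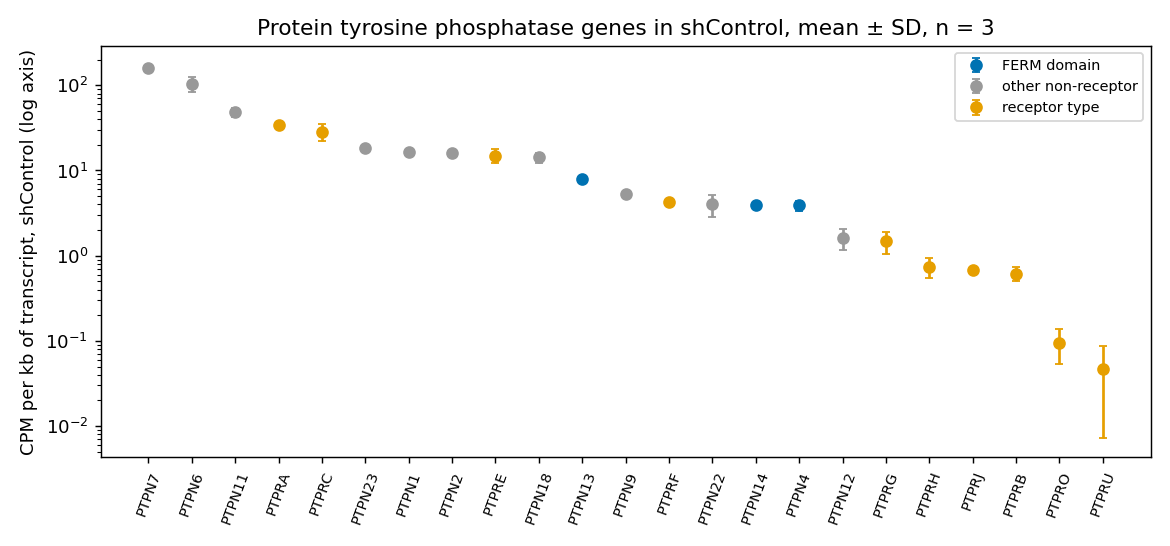
Levels of tyrosine phosphatase genes in shControl, in CPM per kb of transcript on a log axis, as mean ± SD of 3 samples, for the genes that passed the filter on low counts. PTPN13, PTPN14 and PTPN4 (blue) sit at ranks 11, 15 and 16, far below PTPN7 at 158 CPM per kb.

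PTPN14 (row NM_005401) lies on chromosome 1 at 214522043–214725792 of GRCh37 (hg19 coordinates), on the minus strand, and its GENCODE canonical transcript has 19 exons and 13360 nucleotides, longer than 98.9% of the symbols with a length. An annotated lncRNA on the same strand shares 151 of these bases (1.13%), whose reads cannot be told from those of PTPN14. Its counts were 1870, 1661 and 1502 in shControl numbers 1, 13 and 25, 885, 1176 and 808 with shASXL2-2, and 1276, 1142 and 1198 with shASXL2-3. On the CPM scale these were 51.4, 56.5 and 50.1 in shControl, 29.6, 36.9 and 28.0 with shASXL2-2 and 43.5, 35.3 and 43.6 with shASXL2-3. Every knockdown sample lay below every control, and the shRNA groups overlapped each other through the samples numbered 13. Of all 14199 genes tested, 2.61% had all 6 knockdown samples below all 3 controls, 7.79% had the 3 shASXL2-2 samples below them and 5.28% the 3 shASXL2-3 samples. In these bulk samples, less PTPN14 RNA per cell and fewer cells that express it cannot be told apart.

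Set against its own-number control, PTPN14 stood at 57.6%, 65.2% and 55.9% with shASXL2-2 and at 84.5%, 62.4% and 87.1% with shASXL2-3. The number 13 samples were alike for both shRNAs, whereas at numbers 1 and 25 shASXL2-2 was the lower. The group means were 52.7 ± 3.38 CPM for shControl, 31.5 ± 4.71 for shASXL2-2 and 40.8 ± 4.77 for shASXL2-3 (SD, n = 3 each). ASXL2 itself was at a like level with either shRNA, with a log2 difference of −0.08 (SE 0.16) for shASXL2-3 against shASXL2-2.

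**Figure D2:**
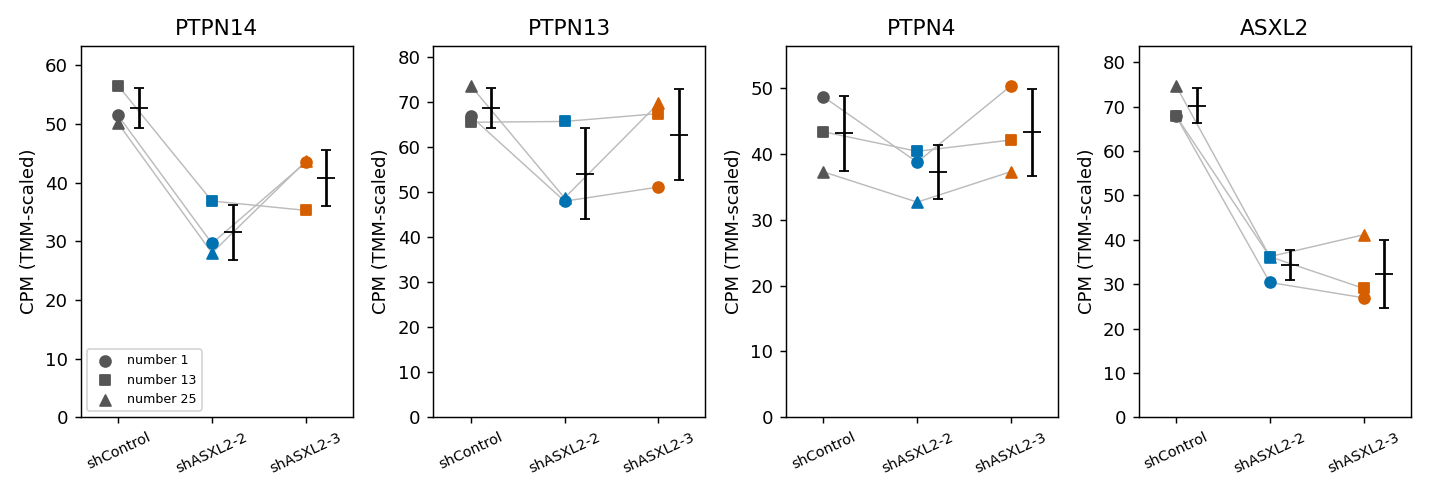
Expression in CPM (TMM-scaled) of PTPN14, PTPN13, PTPN4 and the targeted gene ASXL2 in each sample; marker shapes give the number, grey lines join samples of the same number, and bars give mean ± SD of 3 samples. PTPN14 lies between 28.0 and 43.6 CPM in the knockdown samples and between 50.1 and 56.5 CPM in shControl, while the groups overlap for PTPN13 and PTPN4.

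The fitted log2 fold change of PTPN14 was −0.74 (SE 0.13) for shASXL2-2 against shControl, the contrast by which the gene was chosen. No phosphatase of the family, and 0 of 14199 genes (0%), passed an adjusted p of 0.05 in this contrast in edgeR without the number, although 762 genes had an unadjusted p under 0.05. DESeq2 called 25 genes (0.176%), PTPN14 among them. In the paired fit 40 genes (0.282%) passed, among them 1 member, PTPN14, with −0.74 (SE 0.12), which describes the choice rather than tests it.

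For shASXL2-3 against shControl, in which the knockdown samples took no part in the choice but the controls did, the log2 fold change of PTPN14 was −0.37 (SE 0.13), with an adjusted p of 0.967 in edgeR and 0.144 in the paired fit. No member was called in either fit. Over all genes, 0 (0%) passed without the number, 723 had an unadjusted p under 0.05 and DESeq2 called 26, against 59 genes (0.416%) in the paired fit. With both shRNAs averaged PTPN14 measured −0.56 (SE 0.11), and the paired fit, which called 156 genes (1.1%), again held PTPN14 as its 1 member. That average includes the samples that chose the gene, and without the number it called 0 genes (0%), with 942 at an unadjusted p under 0.05 and 56 called by DESeq2 (0.394%), PTPN14 among them.

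Between the shRNAs the log2 difference of PTPN14 was 0.37 (SE 0.13), higher with shASXL2-3. The difference did not pass, at an adjusted p of 0.998 in edgeR and 0.266 in the paired fit, and the low shASXL2-2 values had chosen the gene. No member and 0 genes (0%) passed in this contrast without the number, 293 genes had an unadjusted p under 0.05, DESeq2 called 11, and the paired fit called 15 (0.106%).

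The PTPN14 call of the paired fit changed with single samples. For shASXL2-2 against shControl PTPN14 stayed past the threshold in 2 of the 9 fits that left out 1 sample, those without shASXL2-3 number 1 or number 13, with log2 fold changes of −0.89 to −0.67 over the 9. The calls over all genes moved with it: those 2 fits called 1604 (11.2%) and 265 genes (1.85%), and the other 7 called 0 to 7, against 40 with all samples. For both shRNAs averaged it stayed in 4 of 9, those without shASXL2-2 number 13 or any 1 of the shASXL2-3 samples, with −0.63 to −0.47. Without shASXL2-2 number 13 the fit called 25 genes (0.174%), without shASXL2-3 numbers 1, 13 and 25 in turn 1755 (12.3%), 90 (0.627%) and 88 (0.612%), and the 5 fits that lost PTPN14 called 2 to 4.

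PTPN13 (row NM_006264) lies on chromosome 4 at 87515468–87736324 of GRCh37, on the plus strand, with 48 exons and 8548 nucleotides. It measured 66.9, 65.6 and 73.7 CPM in shControl numbers 1, 13 and 25, 48.0, 65.7 and 48.7 with shASXL2-2 and 51.1, 67.5 and 69.7 with shASXL2-3. Both shASXL2-2 samples other than number 13 and shASXL2-3 number 1 were low, and the remaining knockdown samples lay within the range of the controls. The log2 fold changes were −0.34 (SE 0.15) for shASXL2-2 and −0.13 (SE 0.15) for shASXL2-3, with adjusted p values of 0.927 and 0.981 in edgeR's quasi-likelihood test and 0.152 and 0.510 in the paired fit. In the paired fit without shASXL2-3 number 1, PTPN13 passed for shASXL2-2 against shControl, at an adjusted p of 0.0273 in edgeR, in the fit that called 11.2% of all genes.

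The files count PTPN13 in 4 RefSeq rows, of which 3 held identical counts and NM_080684 held fewer. The reads outside NM_080684 made up 3.33%, 3.74% and 4.44% of the PTPN13 reads in shControl numbers 1, 13 and 25, 2.58%, 3.53% and 2.56% with shASXL2-2 and 3.20%, 2.88% and 3.45% with shASXL2-3. The controls averaged 3.83% ± 0.559 (SD, n = 3) and the knockdown samples 3.03% ± 0.423 (SD, n = 6), with overlapping ranges. Exact permutation, two-sided, gave p = 0.0714 over 84 arrangements of the samples, which ignore the number. Permutation over the 27 arrangements that keep each number together gave p = 0.0741. The first p doubles the smaller tail, and the second counts absolute differences. Both pool the samples of shASXL2-2 and shASXL2-3, and the reads outside NM_080684 were only 36 to 98 in a sample. The first exon bases of PTPN13 overlap MAPK10 on the opposite strand over 311 bases (3.64% of its exon bases), and reads of an unstranded library cannot be assigned to a strand there.

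PTPN4 (row NM_002830) lies on chromosome 2 at 120517498–120742475 of GRCh37, on the plus strand, with 27 exons and 11090 nucleotides. It measured 48.7, 43.4 and 37.3 CPM in shControl numbers 1, 13 and 25, 38.7, 40.4 and 32.7 with shASXL2-2 and 50.4, 42.1 and 37.3 with shASXL2-3. The groups overlapped, although each shASXL2-2 sample was below the control of its number, at 86.8% ± 6.82 (SD, n = 3), whereas shASXL2-3 was at 100.2% ± 3.17 (SD, n = 3). The log2 fold changes were −0.21 (SE 0.15) for shASXL2-2 and 0.00 (SE 0.14) for shASXL2-3, with adjusted p values of 0.969 and 0.998 in edgeR and 0.192 and 0.985 in the paired fit.

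**Figure D3:**
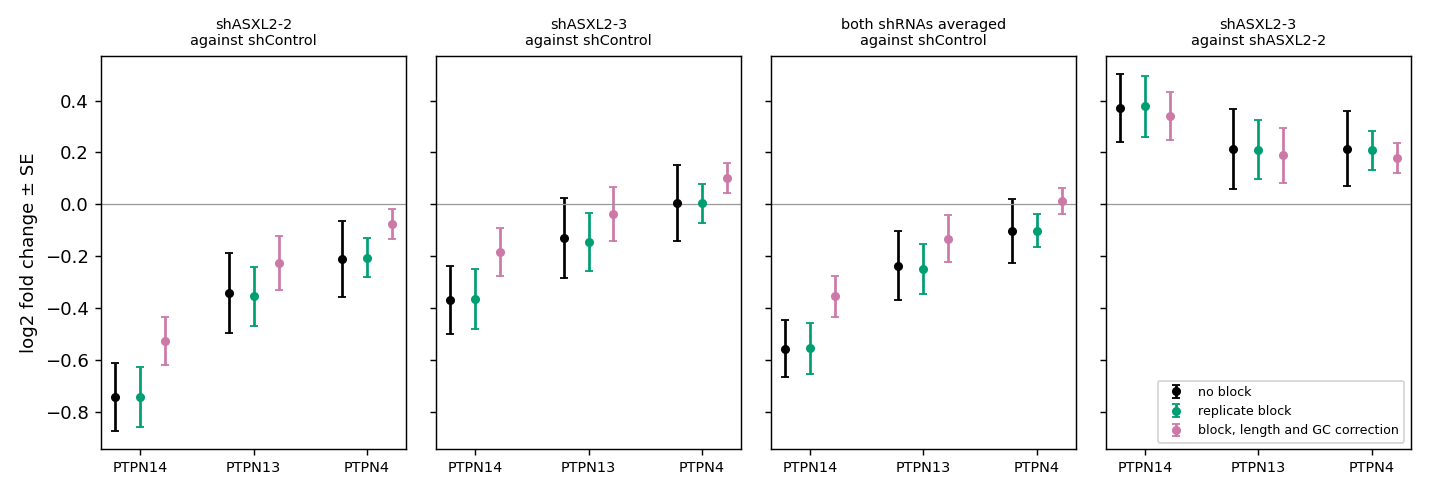
Fitted log2 fold changes ± SE of PTPN14, PTPN13 and PTPN4 in 4 contrasts, from edgeR without the number (black), with the number as a block (green) and with the block and a correction for transcript length and GC content (pink). PTPN14 has the most negative value of the 3 in each contrast against shControl, and each of its 3 such values lies nearer 0 with the correction.

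PTPN14, PTPN4 and PTPN13 all have long transcripts, and long transcripts as a class were lower in the knockdown samples. Among the 12338 tested genes with a length, the 2467 in the longest of 5 equal classes (5548 nucleotides or more) had a median log2 fold change of −0.12 for shASXL2-2 and −0.09 for shASXL2-3, against 0.12 and 0.11 in the shortest class. All 3 expressed members belonged to the longest class. For shASXL2-2, the contrast that chose the gene, PTPN14 was 0.62 below the median of its class, with 39 of 2467 genes (1.58%) lower still. For shASXL2-3, which shares the controls with that contrast, it was 0.28 below, with 221 genes (8.96%) lower. These ranks are a description. PTPN13 was 0.22 below its class median for shASXL2-2 and 0.04 below for shASXL2-3, and PTPN4 0.09 below and 0.10 above.

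When the paired fit also took up offsets for transcript length and GC, the log2 fold change of PTPN14 was −0.52 for shASXL2-2, −0.18 for shASXL2-3 and −0.35 for both averaged. None of the 3 values passed, and no member was called in a contrast between groups; over all genes the corrected fit called 4 (0.0324%), 8 (0.0648%) and 17 (0.138%) of 12338, and 6 (0.0486%) between the shRNAs. On the same genes without the correction, PTPN14 was called for shASXL2-2 and for both averaged. PTPN13 measured −0.23 and −0.04 with the correction and PTPN4 −0.08 and 0.10, for shASXL2-2 and shASXL2-3. The share of length in each gene's own difference was not tested.

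**Figure D4:**
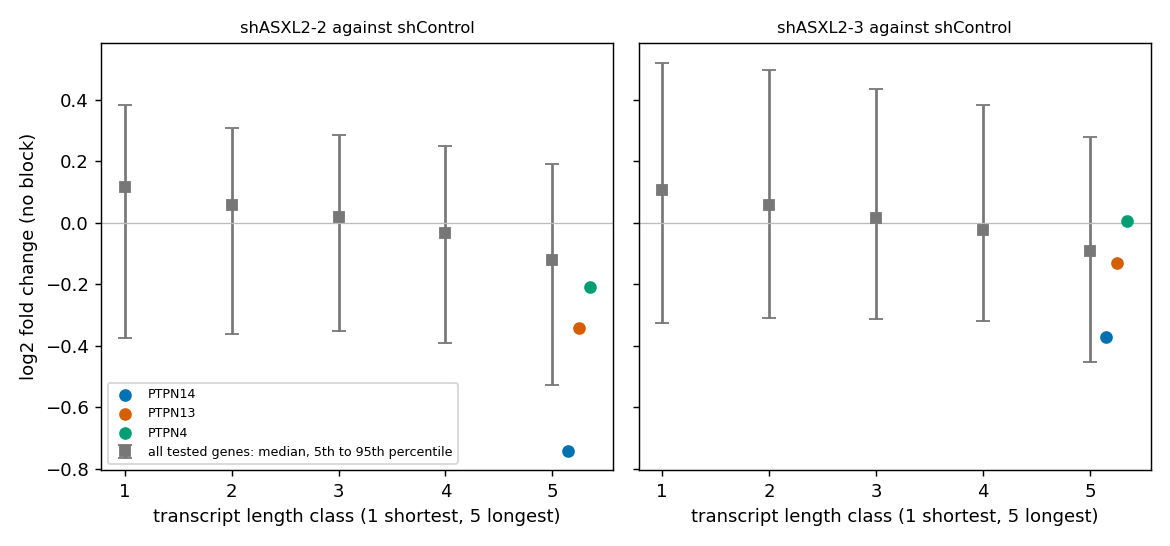
Log2 fold change of the tested genes in 5 transcript length classes (grey: median, with bars from the 5th to the 95th percentile) for each shRNA against shControl, with PTPN14, PTPN13 and PTPN4 drawn beside class 5, to which they belong. Class medians run from 0.12 to −0.12 for shASXL2-2. PTPN14 lies below the 5th percentile of its class there, in the contrast that chose it, but not for shASXL2-3.

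PTPN4 differed between the sample numbers. In the fit with group and number, PTPN4 was higher at number 1 than at numbers 13 and 25 by 0.24 (SE 0.06) on the log2 scale, with an adjusted p of 0.0120 in edgeR. That contrast called 6570 genes (46.3%) of all tested, so 1 member of 3 past the threshold is near the background. PTPN13 was lower at number 1, with −0.24 (SE 0.10) and an adjusted p of 0.0668, and PTPN14 measured −0.01 (SE 0.10) with an adjusted p of 0.938. Between numbers 25 and 13, where 833 genes (5.87%) passed, no member did: PTPN4 measured −0.23 (SE 0.08, adjusted p 0.0920 in edgeR), PTPN13 −0.07 and PTPN14 −0.09. With the length and GC correction, PTPN13 also passed at number 1, at an adjusted p of 0.0406 in edgeR, where 50.8% of genes were called. PTPN4 passed between numbers 25 and 13, at 0.0416 in edgeR, where 8.08% were called.

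The Hippo-YAP pathway, in which PTPN14 acts, was expressed in SKNO-1 without its coactivators. YAP1 had 0 counts in 8 samples and 1 count in shControl number 25, and WWTR1 (which encodes TAZ) had at most 3 counts in a sample. TEAD1 had 0 counts in every sample, whereas TEAD4, a DNA-binding partner of YAP, was at 42.6 ± 7.90 CPM in shControl (SD, n = 3). WWC1, which encodes the PTPN14 partner KIBRA, was expressed at 32.8, 38.8 and 51.9 CPM in shControl numbers 1, 13 and 25, 34.2, 40.3 and 48.0 with shASXL2-2 and 21.2, 39.1 and 48.0 with shASXL2-3. WWC1 was lowest at number 1 and highest at number 25 in each group, and the groups overlapped.

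Of 31 listed Hippo-YAP genes, 29 had a count and 21 were tested. None rose or fell past the threshold for either shRNA, with the number or without it, and 15 of 21 had a log2 fold change below 0 for shASXL2-2 and 12 of 21 for shASXL2-3, where 48.6% and 46.9% of all genes did. The median over the list was −0.09 for shASXL2-2 and −0.05 for shASXL2-3, against 0.01 for all genes in both contrasts. With the block and the length and GC correction, 11 of 20 were below 0 for shASXL2-2, with a median of −0.01, and 12 of 20 for shASXL2-3, with −0.03. The kinases that phosphorylate YAP were present in every group: LATS1 measured 92.8 ± 2.41 CPM in shControl, 84.6 ± 8.07 with shASXL2-2 and 82.0 ± 5.56 with shASXL2-3, and LATS2 15.7 ± 2.77, 12.5 ± 1.87 and 16.1 ± 5.99 (SD, n = 3 each). NF2, the FERM-domain protein upstream of LATS, measured 59.3 ± 3.98, 58.6 ± 4.12 and 54.5 ± 11.3 CPM. Per kilobase the kinases TAOK3 and MAP4K4, which act on the pathway, were the highest of the list in shControl, with 59.1 and 38.6 CPM per kb, followed by TEAD4 with 24.9.

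**Figure D5:**
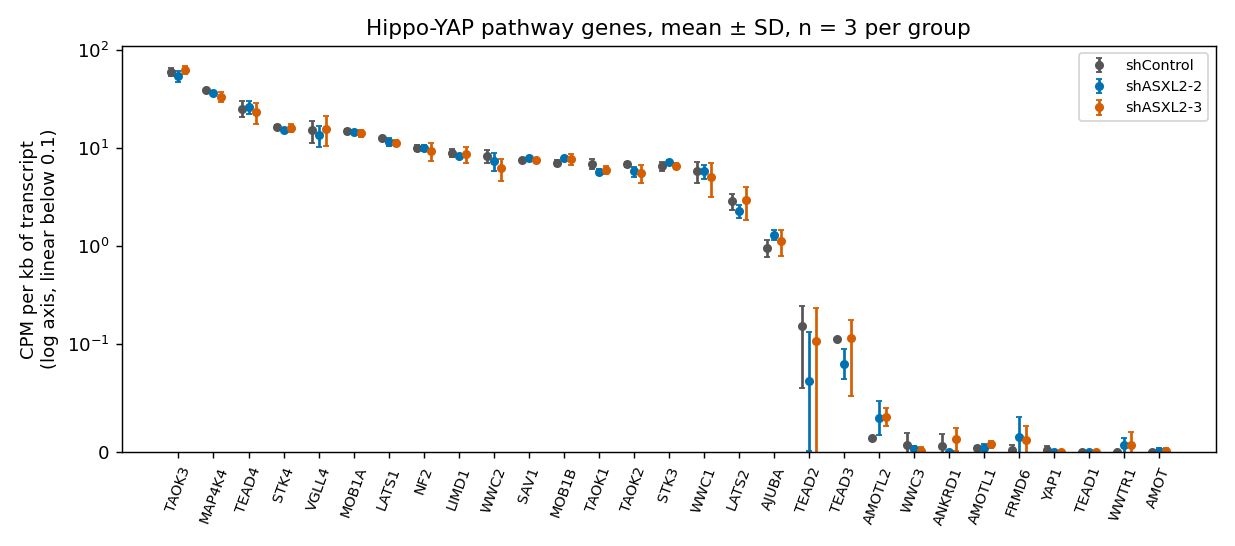
Hippo-YAP genes with a transcript length, in CPM per kb as mean ± SD of 3 samples for shControl (grey), shASXL2-2 (blue) and shASXL2-3 (orange), on an axis that is logarithmic above 0.1 and linear below. Upstream kinases, WWC1 and TEAD4 are expressed in all groups, and YAP1, WWTR1 and TEAD1 sit at or next to 0.

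Other phosphatases showed few calls. Of the 13 other non-receptor tyrosine phosphatases 10 were tested and none was called for either shRNA; PTPN7 measured 440 ± 46.2 CPM in shControl, 434 with shASXL2-2 and 447 with shASXL2-3, PTPN6 (SHP-1) 224 ± 43.6, 190 and 242, and PTPN11 (SHP-2) 295 ± 34.6, 280 and 259. The median log2 fold change of these 10 was −0.05 for shASXL2-2 and 0.02 for shASXL2-3. Of the 20 receptor-type genes 10 were tested and none was called without the number. In that fit 8 of the 10 were below 0 for shASXL2-2, with a median log2 fold change of −0.15, and 2 for shASXL2-3, with 0.24. Of all genes 48.6% and 46.9% were below 0, with medians of 0.01. With the block 2 were again below 0 for shASXL2-3, with a median of 0.14. Of the 10, 7 were called higher and 1 lower at number 1 than at numbers 13 and 25. That contrast called 46.3% of all genes. PTPRF measured 110, 23.6 and 38.8 CPM with shASXL2-3 numbers 1, 13 and 25, against 35.6, 32.2 and 29.8 in shControl. PTPRC measured 265, 114 and 142, against 187, 153 and 117. Both were thus below their control at number 13. In the paired fit PTPRG fell with shASXL2-3, by 0.61 (SE 0.11) on the log2 scale with an adjusted p of 0.0433 in edgeR, from 9.90, 13.5 and 18.1 CPM in shControl to 5.69, 8.95 and 13.3. The ranges of the groups overlapped, and PTPRG was lowest at number 1 and highest at number 25 in each group. PTPRG was not called with the length and GC correction. The paired fit called 59 genes (0.416%) in this contrast. Without shControl number 1, shControl number 25 or shASXL2-3 number 25 it called 1 gene, ASXL2, so PTPRG was not called there.

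Of 38 other genes for FERM-domain proteins 25 were tested, and 22 had a log2 fold change below 0 for shASXL2-2 and 21 for shASXL2-3, with medians of −0.14 and −0.13 against 0.01 for all genes. Of all genes 48.6% and 46.9% were below 0, and of the longest length class 76.0% and 71.1%. With the block and the length and GC correction the list had 16 and 20 of 25 below 0, with medians of −0.08 and −0.09. None was called without the number. The paired fit called 1, JAK1, the cytokine receptor kinase, which fell with shASXL2-3 by 0.38 (SE 0.07) with an adjusted p of 0.0409 in edgeR. It went from 156, 148 and 134 CPM in shControl to 117, 108 and 111, and measured 124, 123 and 116 with shASXL2-2, so that every knockdown sample lay below the controls, as for 2.61% of all genes. The paired fit called 0.416% of all genes for shASXL2-3. Without shControl number 1, shControl number 25 or shASXL2-3 number 25 its 1 call was ASXL2, so JAK1 was not called there. JAK1 was not called with the length and GC correction. The most abundant genes of this list per kilobase, MSN (moesin), FERMT3 (kindlin-3) and TLN1 (talin-1), which link membrane receptors to actin, measured 1183 ± 146, 283 ± 13.2 and 641 ± 59.0 CPM in shControl (SD, n = 3 each) and were not called.

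Of 25 listed partners and substrates of the family, 20 were tested and none was called for either shRNA, with medians of 0.06 for each. The list held 7 genes with a log2 fold change below 0 for shASXL2-2 and 8 for shASXL2-3. Of all genes 48.6% and 46.9% were below 0, with medians of 0.01. Over all genes the paired fit called 0.282% and 0.416%, and the fit without the number 0%. VCP, a substrate of PTPN3, measured 593 ± 129 CPM in shControl, 620 with shASXL2-2 and 579 with shASXL2-3, the focal adhesion protein ZYX 137 ± 8.98, 148 and 149, and CTNNB1 (beta-catenin) 186 ± 13.6, 192 and 189.

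Across the 9 samples, the genes whose log2 CPM followed PTPN14 most closely were ROCK1 (Pearson's r 0.95), MADD (0.94), BPTF (0.94), KMT2C (0.94) and CABIN1 (0.94). ROCK1 is a kinase of the actomyosin cytoskeleton, KMT2C a histone methyltransferase and BPTF a subunit of a chromatin remodeller. ROCK1 averaged 109 CPM in shControl, 90.4 with shASXL2-2 and 96.7 with shASXL2-3, and KMT2C 71.3, 43.1 and 50.3, the same order of groups as PTPN14. Genes chosen by r over these same samples tend to share that order, so it is no separate result. The canonical transcripts of these 5 genes had 6036 to 16860 nucleotides, all within the longest of the 5 equal length classes. Other members followed PTPN14 less closely, with r of 0.67 for PTPN13 and 0.54 for PTPN4, while WWC1 had −0.09 and ASXL2 0.74. The 9 points share libraries and groups, and these values are a description over 14198 genes.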

How the data were processed

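Poly(A) RNA of 9 SKNO-1 samples was measured. The authors deposited raw counts per RefSeq transcript (hg19); the processing notes name STAR, featureCounts and DESeq2 without versions, and the unstranded TruSeq libraries do not mark strand. The extraction text in the labels describes sorted bone marrow cells, not this line. Each file holds 48104 rows; the row with the highest total per symbol was kept. Genes passing filterByExpr (minimum count 10, minimum total 15; 14199 genes) were fitted over all 9 samples with edgeR 4.0.16 (R 4.3.3; TMM, quasi-likelihood test, Benjamini-Hochberg, threshold 0.05), without the number as a block (6 residual degrees of freedom). The paired fit adds it (4 degrees of freedom): deviations of same-numbered samples from their group means correlated in all 9 pairs (mean r 0.598, lowest 0.398). Other pairs had a mean r of −0.291, which follows largely from the same-number value because deviations in a group sum to 0. Number contrasts used group plus number. DESeq2 1.42.0 was an alternative. The length and GC correction used loess offsets (span 0.5) over canonical GENCODE release 44 transcripts; promoters came from RefSeq. The fits were run on simulated data with the same dispersion for all genes. A minimum recovery was required of the paired fit only, and a maximum share of false calls of both fits. Members and gene lists were chosen with earlier results of these data known. Named were the members, ASXL2, the genes called per list, the 3 most abundant per list, 6 Hippo-YAP genes and the 5 genes most like PTPN14. TEAD1 was named after its values were seen. The floor of 3 counts covers counting error only.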

Additional observations from a re-analysis of the deposited data

How the results depend on the processing

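In edgeR without the replicate block no FERM-domain phosphatase was called in a contrast between groups, nor under another scaling, filter, row choice or choice of samples. These fits called 0% to 0.014% of all genes, so this held for nearly every gene. For shASXL2-2 against shControl 1 was called (PTPN14) with the replicate block (0.282% of all genes called), on genes with a length only (0.3%), with DESeq2 without (0.176%) or with the block (2.63%), and in the paired fit without number 1 (1.9%) or number 13 (0.0632%). Leaving out single samples gave 0 to 2, with 0% to 11.2% of all genes called in the paired fits. For both shRNAs averaged 1 was called under the same settings apart from the fit without number 13 (0.394% to 4.38% of all genes called). Single samples left out gave 0 to 1, with 0.0139% to 12.3% of all genes called in the paired fits. Between the shRNAs 1 was called in the paired fit without number 13 (0.428% of all genes). Leaving out single samples gave 0 to 1 in this contrast, with 0% to 1.79% of all genes called in the paired fits. In the paired fit without number 25 none was called. With all 9 samples the replicate block changed no other member's call; without shASXL2-3 number 1 it added that of PTPN13.

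For number 1 against the others 2 were called with the length and GC correction (50.8% of all genes called). DESeq2 (40.7%) and the fit with no filter on low counts (32.6%) also called 2. Without single samples 1 to 2 were called (33.7% to 43.8% of all genes). Between numbers 25 and 13, 1 was called with the correction (8.08%) and 0 to 1 without single samples (0.348% to 19.2%). ASXL2, for both shRNAs averaged, passed at −1.09 with the block (also on genes with a length and in DESeq2). It also passed at −0.92 with the correction and −1.07 with DESeq2. In the paired fit without numbers 1, 13 and 25 it passed at −1.004, −1.10 and −1.16. Single samples left out gave −1.18 to −1.005, and all 9 such paired fits passed. ASXL2 did not pass in 10 settings, all without the block, with −1.10 to −1.02 and adjusted p of 0.0517 to 0.999 in edgeR's quasi-likelihood test.

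Values near 0 changed sign. PTPN4 measured −0.023 for shASXL2-3 against shControl in the paired fit without number 1, −0.12 to 0.10 without single samples, and 0.013 for both averaged with the correction. ASXL2 between the shRNAs measured 0.017 in the paired fit without number 13 and −0.29 to 0.030 without single samples. For number 1 PTPN14 ranged from −0.096 to 0.050, and between numbers 25 and 13 PTPN13 from −0.20 to 0.074 and PTPN14 from −0.27 to 0.059. The cause of these changes was not tested. Depth limits PTPN3 and PTPN21, which lie at or near 0 counts.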
